A study of Homo sapiens with 12 samples.

Results

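The comparison asks what changed in U87 cells, an established human glioblastoma line, when an anti-seed peptide nucleic acid against miR-21 (sgPNA-21) was given together with one against miR-10b (sgPNA-10b), relative to sgPNA-10b given by itself. It uses 6 of the study's 12 mRNA libraries, chosen by their sample titles: 3 of cells given sgPNA-10b (PNA-10b) and 3 of cells given both compounds (PNA-10b+21). The study also holds 3 libraries of untreated cells (control) and 3 of cells given sgPNA-21 without sgPNA-10b (PNA-21). All treated cells received the nanoparticle carrier for 72 h with 150 nM of each sgPNA named, so the combined arm had a higher total amount of sgPNA than the PNA-10b arm. Because both arms carried nanoparticles, this contrast does not include the step from no carrier to carrier that the contrasts with untreated cells include. The labels list no cells with an empty carrier or a control sequence, and do not say whether replicates were separate cultures, so p-values measure only the spread between these libraries, which may be technical.

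A microRNA guides the Argonaute complex to messenger RNAs that pair with its seed, the bases near its 5′ end, and lowers their stability or translation. A peptide nucleic acid has nucleobases on a peptide-like backbone, binds RNA tightly and, when matched to the seed, occupies the part of the microRNA that pairs with its targets. miR-21 is abundant in glioblastoma and many other tumours, where it is known for restraining tumour suppressors and inhibitors of growth signalling, and miR-10b is known for its high level in glioma against its near absence in normal brain. The sequences that set the expected pairing are the mature microRNAs, given 5′ to 3′ from RefSeq (GRCh38.p14) with the seed, bases 2 to 8, in capitals.
hsa-miR-21-5p, chr17:59841273-59841294, plus strand: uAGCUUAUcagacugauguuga
hsa-miR-590-5p, chr7:74191213-74191234, plus strand: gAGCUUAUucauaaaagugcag
hsa-miR-10a-5p, chr17:48579904-48579926, minus strand: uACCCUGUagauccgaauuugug
miR-590-5p is shown because its seed is identical to that of miR-21-5p, and miR-10a-5p because it belongs to the seed family of miR-10b. The assay counted messenger RNA, and mature microRNAs were not measured. VMP1, the gene whose locus hosts miR-21, measured 393, 381 and 430.2 CPM (counts scaled to a common library size, with TMM factors) in PNA-10b and 376, 418 and 426 CPM in PNA-10b+21, with overlapping libraries.

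Total counts ran from 14026933 to 16969787 in the PNA-10b libraries and from 14102709 to 17098686 in the PNA-10b+21 libraries. Of the 11 tested markers of glioblastoma and astrocytes, vimentin (VIM) and CD44 were high in all 6 libraries, at 1948, 1789 and 1864 and 1450.0, 1438 and 1462 CPM in PNA-10b. GFAP, the intermediate filament of astrocytes, was low at 3.19, 2.89 and 2.75 CPM, and S100B, SOX2 and AQP4 were among the 6 listed markers that were not tested. Of 19 markers of neurons, oligodendrocytes, leukocytes and endothelium, 6 were tested. These were 3 of 6 neuron, 1 of 5 microglia and leukocyte and 2 of 4 endothelial markers, and none of oligodendrocytes. RBFOX3, MBP, PTPRC and CLDN5 were among those below the count filter. No replicates of a group agreed within sampling noise. The combined libraries differed among themselves in the direction of the comparison: replicate 1 was the lowest of the 3 for 66.7% of the genes that fell and replicate 3 the highest for 70.5%, while over all genes tested replicate 1 was lowest for 32.7% and replicate 3 highest for 35.2%. Without replicate 1 of PNA-10b+21 the calls dropped to 193 higher and 339 lower, and without replicate 2 to 374 and 491. Without replicate 2 or 3 of PNA-10b 447 and 363 genes were called higher.

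Adding sgPNA-21 raised 724 genes and lowered 801 of 15715 tested, at an adjusted p under 0.05 in edgeR's quasi-likelihood test with Benjamini-Hochberg adjustment. These are 4.61% and 5.1% of the genes tested, or 9.7% in either direction. The counts of list members called, given below, are to be read beside these shares. The falls were the larger changes. At least 2-fold changes were seen for 53 genes that fell and 12 that rose, and the median log2 fold change was -0.37 over the genes called lower and 0.26 over those called higher. Over all genes tested the median was 0.0033, so the centre of the distribution did not move. Of the genes called, 703 of the 724 higher and 781 of the 801 lower had no overlap between the 3 and 3 libraries. The calls were made from these same libraries, so this follows from the selection and adds no separate support. Over all genes tested 14.9% had no overlap on the higher side and 13.4% on the lower side. Protein-coding genes made up 97.4% of the rises and 87.8% of the falls, and 78.1% of the genes tested.

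**Figure D1:**
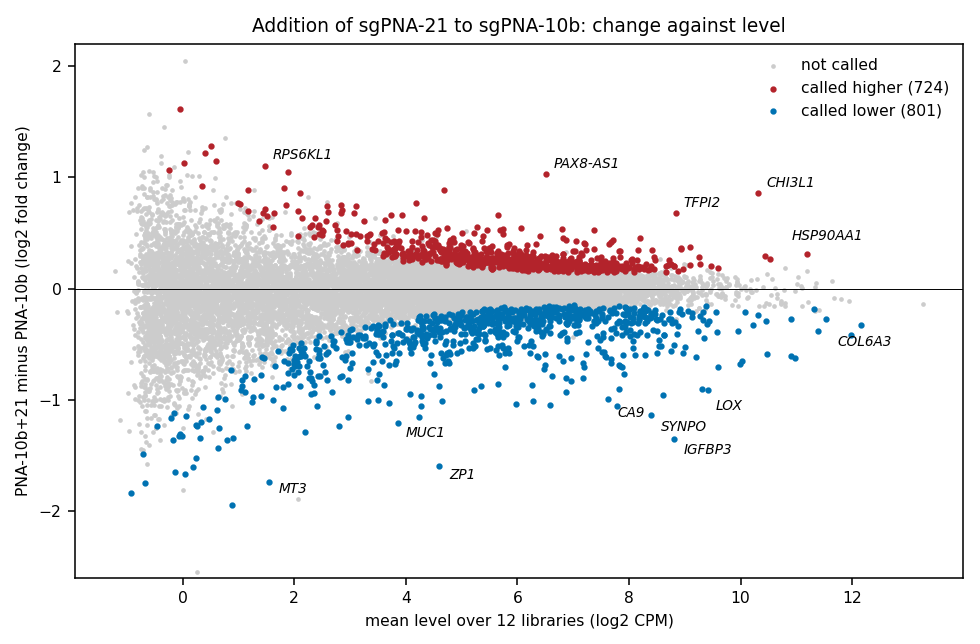
Log2 fold change of PNA-10b+21 over PNA-10b (vertical axis) against the mean level over 12 libraries in log2 CPM (horizontal axis), 1 point per gene, with red for the 724 genes called higher and blue for the 801 called lower. The falls reach further than the rises, with 53 genes at least 2-fold lower against 12 higher, and 13 genes lie beyond the vertical axis.

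Genes known to be induced by low oxygen fell together. When oxygen is scarce, the alpha subunits of hypoxia-inducible factors escape degradation and switch on genes for vessel growth, acid export, glycolysis and collagen handling. Of 26 tested members of the hypoxia-induced list, 22 fell and none rose, with a median log2 fold change of -0.64 against 0.0033 over all genes, where 5.1% of genes were called lower. In 24 of the 26 the 3 combined libraries were all below the 3 PNA-10b libraries, against 13.4% of all genes. CA9, the membrane carbonic anhydrase that tumour cells use to regulate pH and a standard marker of hypoxia, measured 252, 250.5 and 248 CPM in PNA-10b and 107, 130.0 and 141 CPM in PNA-10b+21. Its PNA-10b libraries lay within a few CPM of each other and every combined library was far below them, a log2 fold change of -0.99 ± 0.082 (SE, adjusted p 1.88e-07). VEGFA, the main growth factor for blood vessels, measured 1709.6, 1555 and 1667 CPM and 979.5, 1098 and 1212 CPM in the 2 arms. The groups did not overlap, and VEGFA had a log2 fold change of -0.58 ± 0.075 (adjusted p 3.29e-05). CA12, a second tumour carbonic anhydrase, changed by -0.70 ± 0.062 and ANGPTL4, a secreted regulator of lipid uptake and vessels, by -1.15 ± 0.20 on the log2 scale. ADM, the vasodilator adrenomedullin, was the member of this role that did not pass (-0.19 ± 0.075, adjusted p 0.112), and its 2 arms overlapped.

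The 9 tested hypoxia genes of mitophagy and metabolism had the lowest median of the 4 roles, -0.80. BNIP3, a receptor that marks mitochondria for autophagy, measured 504, 472 and 513 CPM in PNA-10b and 211, 259 and 299 CPM in PNA-10b+21, a log2 fold change of -0.96 ± 0.096 (adjusted p 1.89e-06). All combined libraries were below all PNA-10b libraries, with replicate 1 the lowest. FAM162A, a mitochondrial protein, changed by -0.80 ± 0.067 and the lipid droplet protein HILPDA by -0.92 ± 0.11. NDRG1, a differentiation gene strongly induced by hypoxia, measured 820.3, 798 and 791 CPM and 350.2, 434 and 504 CPM, with the lowest value in replicate 1 of the combined arm and a log2 change of -0.90 ± 0.098. NDUFA4L2, a mitochondrial subunit paralog, was the member that did not pass, at -0.85 ± 0.27 (adjusted p 0.0539) and a level of only 1 to 2 CPM.

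All 7 hypoxia genes of collagen modification fell. LOX, the lysyl oxidase that crosslinks collagen and elastin, measured 777, 838 and 929 CPM in PNA-10b and 391, 427 and 532 CPM in PNA-10b+21. Each combined library was below each PNA-10b library, and the log2 fold change was -0.91 ± 0.099 (adjusted p 5.62e-06). Its relative LOXL2 changed by -0.68 ± 0.060. P4HA1, the catalytic subunit of collagen prolyl hydroxylase, measured 289.8, 302 and 319 CPM and 176, 198 and 227 CPM, and PLOD2, the lysyl hydroxylase, fell from 1163 ± 53.4 to 739 ± 102 CPM (SD, n = 3). The groups did not overlap for either gene, with log2 changes of -0.60 ± 0.071 and -0.66 ± 0.078. Oxygen sensors and feedback genes changed least, with a median of -0.41: EGLN1, a prolyl hydroxylase that marks the hypoxia factors for degradation, changed by -0.51 ± 0.13 (adjusted p 0.0185), and BHLHE40, a repressor, was at -0.13 ± 0.054 (adjusted p 0.125). Of this role 3 of 5 genes were called lower, EGLN1 among them, and 0 without replicate 1 of PNA-10b+21.

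Within the combined arm, replicate 1 was lowest for 25 of the 26 hypoxia-induced genes and replicate 3 highest for 23. The count of members called lower ran from 18 without that replicate 1 to 24 without that replicate 3. Oxygen, cell number and density were not measured, so their part in these levels was not tested.

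**Figure D2:**
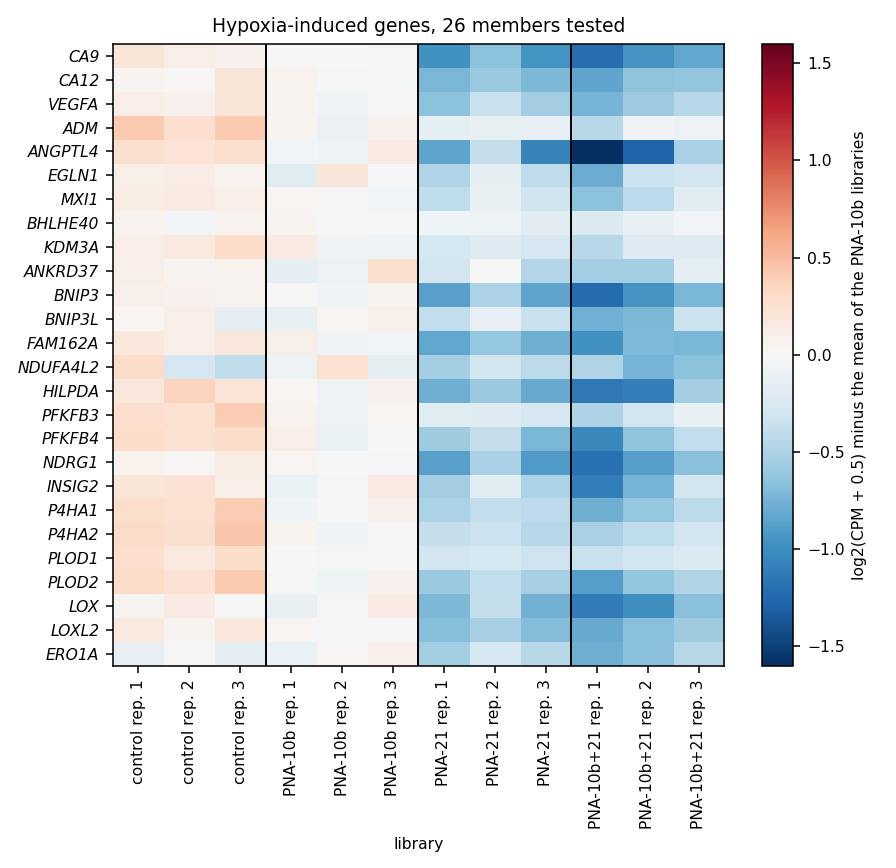
Heat map of log2(CPM + 0.5) minus the mean of the 3 PNA-10b libraries for the 26 tested hypoxia-induced genes (down) in the 12 libraries (across), with blue for lower and red for higher. All 6 libraries that received sgPNA-21 are blue for nearly every gene, and replicate 1 of PNA-10b+21 is the darkest of its arm.

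Hypoxia-inducible factors bind a short core, ACGTG or GCGTG on either strand, and the promoters of these genes were searched for it from 250 bases before to 50 after the RefSeq start. A promoter was at hand for 20 of the 26 tested members and for 10862 genes tested. The core stood in 18 of the 20 (90%) and in 62.4% of all promoters of that length. The stricter form ACGTG stood in 12 of 20 (60.0%) and in 26.8% of all. Of the 17 called members with a promoter, 15 held the core and 10 held ACGTG, much like the 20. The list was made of genes known to be induced by low oxygen. A high share of the motif therefore does not bear on their change on addition. For the list of glycolysis genes the shares were 13 of 20 (65.0%) and 8 of 20 (40.0%). Both forms overlap the E-box CACGTG. The following 4 windows are shown because their genes are named above, with 1 match to the core or its reverse complement in capitals, on the strand of the gene (GRCh38.p14).
CA9, chr9:35673900-35673924, plus strand: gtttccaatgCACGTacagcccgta
BNIP3, chr10:131982043-131982067, minus strand: gcacgcgccgCACGTgccacacgca
P4HA1, chr10:73096938-73096962, minus strand: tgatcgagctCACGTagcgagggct
LOX, chr5:122078343-122078367, minus strand: caatcgcattACGTGaacaaatagc
Counted from the start, the match begins at position -18 in CA9, -86 in P4HA1 and -98 in LOX. The searched promoter of LOX held 4 matches and that of BNIP3 5, of which the BNIP3 stretch shown holds others in lower case. These matches describe letters in the window and not occupancy, which was not measured.

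Genes of the hypoxia factor machinery had a median change nearer 0 than the hypoxia-induced list. Of 14 tested genes of this machinery 2 fell and none rose, with a median of -0.013. Both falls were among the 5 factor subunits, which had a median of -0.17. For 3 of these 5 all combined libraries were below all PNA-10b libraries. The 9 inhibitors and ligases had a median of 0.02. HIF1A, the oxygen-regulated subunit, measured 635, 601 and 646 CPM in PNA-10b and 526, 571 and 575 CPM in PNA-10b+21. The groups did not overlap, but the change of -0.17 ± 0.059 did not pass (adjusted p 0.0741). EPAS1, which encodes HIF-2 alpha, measured 605, 609 and 601 CPM and 493, 492 and 533 CPM and changed by -0.26 ± 0.052 (adjusted p 0.00299). HIF3A, a further alpha subunit with a low level here, changed by -0.83 ± 0.18 (adjusted p 0.00596). The partner ARNT was at 0.13 ± 0.060, the ubiquitin ligase subunit VHL at 0.02 ± 0.070 and the asparagine hydroxylase HIF1AN at 0.06 ± 0.056, none of which passed.

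Glycolysis genes, many of them also known targets of hypoxia factors, fell in the same comparison. Of 21 tested, 15 fell and 1 rose, with a median log2 fold change of -0.30. SLC2A1, the glucose transporter GLUT1, measured 274, 254 and 273 CPM in PNA-10b and 131, 169 and 195 CPM in PNA-10b+21. No library overlapped, and the change was -0.69 ± 0.11 (adjusted p 0.000272). SLC16A3, which exports lactate, changed by -0.62 ± 0.091 and PDK1, the kinase that keeps pyruvate out of mitochondria, by -0.60 ± 0.090. PGK1 measured 2375, 2189.8 and 2207 CPM and 1369, 1516 and 1556 CPM, a log2 change of -0.61 ± 0.067 (adjusted p 6.49e-06) with no overlap. Smaller changes were seen in LDHA, which makes lactate, by -0.38 ± 0.072, ENO1 by -0.28 ± 0.074, and GAPDH by -0.15 ± 0.071 and PKM by -0.11 ± 0.070, of which the last pair did not pass. PFKM, the muscle form of phosphofructokinase, was the member that rose, from 125, 123 and 124 CPM to 156, 155 and 151 CPM (0.32 ± 0.047, adjusted p 0.000188), while the liver and platelet forms PFKL and PFKP changed by -0.31 ± 0.050 and -0.28 ± 0.063. Leaving out 1 library left 10 to 16 of these genes called lower, 10 without replicate 1 of PNA-10b+21. ENO1 lost its call without replicate 1 of PNA-10b (adjusted p 0.103) and without replicate 1 (0.132) or 2 (0.0514) of PNA-10b+21.

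IGFBP3 had the smallest p-value of all genes that fell. IGFBP3 binds insulin-like growth factors in the extracellular space and controls how much of them reaches the receptor. It measured 659.9, 661 and 645 CPM in PNA-10b and 257, 269.6 and 244 CPM in PNA-10b+21. The 3 libraries of each arm lay close together and far from the other arm, the combined arm was at 0.39 of the PNA-10b level, and the log2 fold change was -1.35 ± 0.065 (adjusted p 4.27e-11). The gene lies on chromosome 7, 45912245 to 45921874 (GRCh38, GENCODE 29). Control cells measured 621, 624 and 622 CPM and PNA-21 cells 229, 284 and 284 CPM, so all 6 libraries with sgPNA-21 were below all 6 without it.

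Of the 6 tested binding proteins of this system, 4 fell and 1 rose, and 3 were called lower without replicate 2 of PNA-10b or with only the 6 compared libraries fitted. IGFBP1 measured 25.4, 28.0 and 27.6 CPM in PNA-10b and 12.1, 15.3 and 14.1 CPM in PNA-10b+21, a change of -0.97 ± 0.093 (adjusted p 1.2e-06) without overlap. IGFBP5 changed by -0.77 ± 0.12 and IGFBP7 by -0.19 ± 0.057. IGFBP4 was the member that rose, from 31.5, 29.9 and 36.0 CPM to 47.4, 46.4 and 46.3 CPM (0.53 ± 0.10, adjusted p 0.00228). Control cells measured 58.5, 45.7 and 55.9 CPM of IGFBP4. PNA-10b cells, which also had the carrier, were below them (-0.71 ± 0.10, adjusted p 0.00028). The combined libraries lay above the PNA-10b ones and within the control range. All 6 tested binding proteins, IGFBP4 among them, were called lower in PNA-21 against control, where 14.6% of all genes were. Among the proteases that cleave binding proteins, PAPPA2 changed by -0.65 ± 0.098 and PAPPA did not pass (-0.10 ± 0.069). STC1 and STC2, the stanniocalcins that inhibit those proteases, changed by -0.58 ± 0.090 and -0.60 ± 0.078. None of the 5 receptors and adaptors passed, with IGF1R at -0.05 ± 0.061 and IRS1 at -0.09 ± 0.044.

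**Figure D3:**
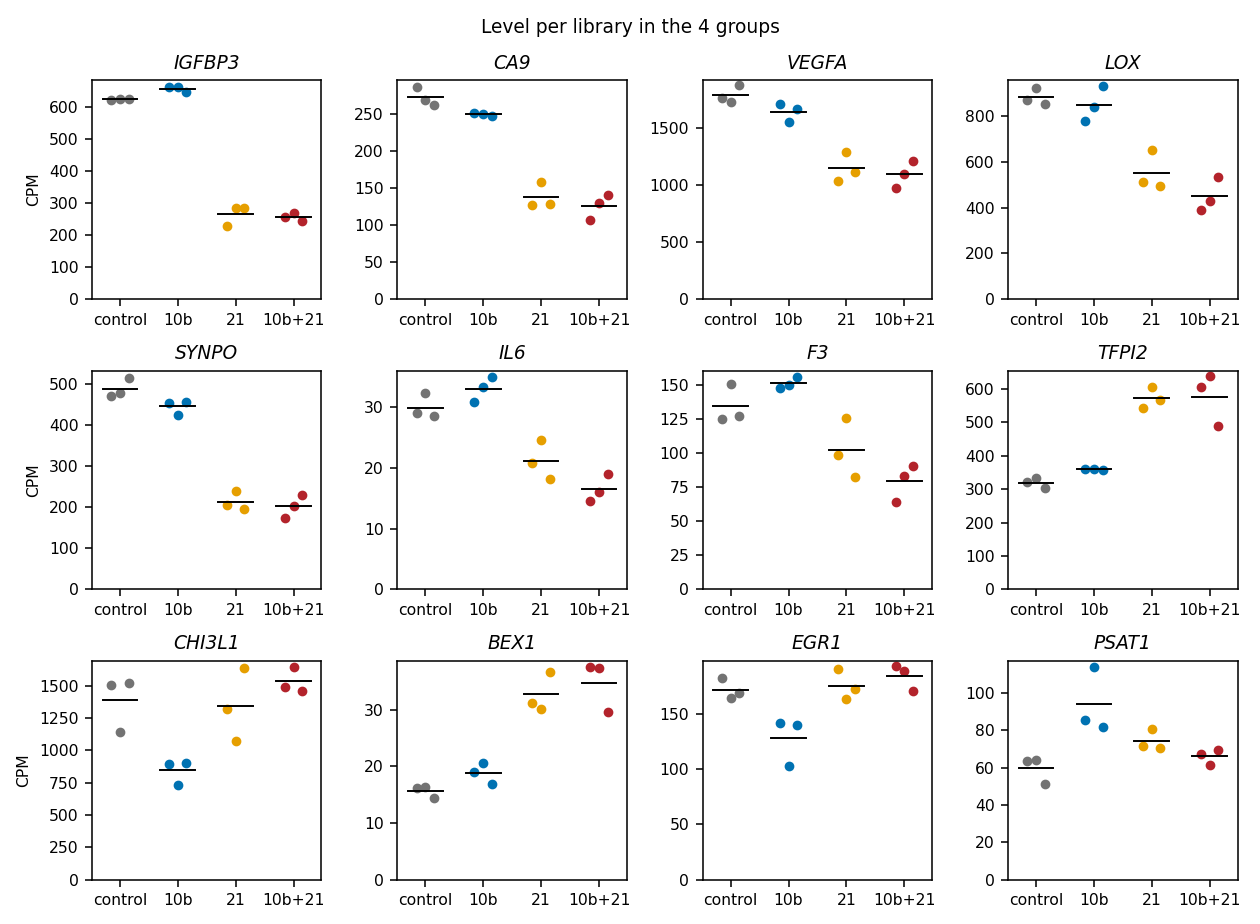
CPM per library (vertical axes, each starting at 0) in control, PNA-10b, PNA-21 and PNA-10b+21 for 12 genes, with 1 point per library and a bar at the mean of 3. IGFBP3, CA9, VEGFA and SYNPO sit lower in both groups with sgPNA-21, TFPI2 and BEX1 higher in both, and CHI3L1 and EGR1 are low in PNA-10b only among the 4 groups.

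Among genes with a mean of at least 2 CPM, no overlap and at most a 4-fold spread within an arm, MT3 and ZP1 had the largest falls, followed by IGFBP3. MT3, a brain metallothionein that binds zinc and copper, measured 4.93, 4.13 and 4.37 CPM in PNA-10b and 0.974, 1.77 and 1.32 CPM in PNA-10b+21, a log2 fold change of -1.74 ± 0.21 (adjusted p 2.08e-05). It was the only one of 6 tested metallothioneins to pass: MT2A measured 422, 446 and 404 CPM and 396, 431 and 367 CPM, with overlapping libraries. ZP1, an egg coat glycoprotein gene that these cells transcribe, fell from 37.6, 34.5 and 35.2 CPM to 9.45, 11.8 and 14.4 CPM (-1.59 ± 0.12, adjusted p 8.2e-08). SYNPO, which encodes the actin-binding protein synaptopodin, measured 456, 426 and 457 CPM and 174, 204 and 231 CPM, about 2.2 times lower, with groups far apart (-1.14 ± 0.081, adjusted p 2.66e-08). CPA4, a secreted carboxypeptidase, fell from 299 ± 26.2 to 144 ± 10.4 CPM (SD, n = 3) and TMEM45A, a membrane protein, from 78.0 ± 1.29 to 38.1 ± 5.80 CPM. MUC1, a cell surface mucin, changed by -1.21 ± 0.12 and TREM1, a receptor best known from myeloid cells, by -1.23 ± 0.14. ARTN, the neurotrophic ligand artemin, changed by -1.06 ± 0.10, the sialyltransferase ST8SIA5 by -1.16 ± 0.17 and the opsin OPN3 by -1.07 ± 0.17. ADAM28, a membrane metalloprotease, changed by -1.29 ± 0.27 and IGF2BP1, an oncofetal RNA-binding protein, by -1.23 ± 0.26, both from levels under 10 CPM. All 12 of the largest falls kept an adjusted p under 0.05 with each of the 6 libraries left out.

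The rises were smaller in fold. RPS6KL1, a kinase-like gene, measured 1.74, 1.83 and 1.69 CPM in PNA-10b and 4.18, 3.68 and 3.39 CPM in PNA-10b+21 (1.10 ± 0.19, adjusted p 0.000961). PAX8-AS1, a noncoding RNA antisense to the PAX8 locus, rose from 67.8, 60.2 and 66.9 CPM to 157, 139.8 and 101 CPM (1.03 ± 0.13). Its counts are less certain, since the strand setting of the counting is not given in the sources used here. BEX1, a small adaptor of neurotrophin signalling, measured 18.9, 20.6 and 16.8 CPM and 37.5, 37.3 and 29.5 CPM and rose by 0.89 ± 0.10 (adjusted p 7.4e-06), with every combined library above every PNA-10b library. C6orf141 (0.66 ± 0.065), the quinolinate-metabolizing enzyme QPRT (0.55 ± 0.062) and the acid phosphatase gene ACP7 (0.52 ± 0.066) had the smallest p-values among rises together with BEX1 and TFPI2. SECTM1 rose by 1.05 ± 0.19, CCDC69 by 0.90 ± 0.20, the cell adhesion gene LSAMP by 0.75 ± 0.14, the mucin glycosyltransferase GCNT3 by 0.74 ± 0.16, the keratin KRT75 by 0.75 ± 0.16 and LINC01723 by 0.76 ± 0.23. The calls of 2 of these depended on single libraries: KRT75 was at an adjusted p of 0.0509 without replicate 1 of PNA-10b+21, and LINC01723 kept its call in 1 of 6 such fits and lost it in DESeq2 (adjusted p 0.124).

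Several rises ran against a fall seen in PNA-10b cells against control, a contrast that also includes the carrier. CHI3L1, the secreted glycoprotein YKL-40 that marks mesenchymal glioblastoma, measured 1508, 1145 and 1522 CPM in control, 897, 731 and 906 CPM in PNA-10b and 1493, 1648 and 1460.0 CPM in PNA-10b+21. The PNA-10b libraries were the lowest of the 3 groups and the combined libraries overlapped with control, with a change of 0.86 ± 0.12 on addition (adjusted p 7.09e-05) and -0.72 ± 0.12 for sgPNA-10b against control (adjusted p 0.000878). In PNA-21 cells CHI3L1 measured 1321, 1072 and 1636 CPM. Of the 6 tested markers of the mesenchymal subtype, CHI3L1 was the only 1 called on addition. The median of the 6 was -0.095, and 2 had all combined libraries below all PNA-10b libraries. EPHA2, an ephrin receptor tyrosine kinase, measured 43.6, 39.4 and 41.7 CPM in control, 30.4, 28.1 and 30.8 CPM in PNA-10b and 40.7, 43.2 and 46.7 CPM in PNA-10b+21 (0.55 ± 0.073 on addition, adjusted p 4.82e-05). EGR1, an immediate early transcription factor, measured 182, 165 and 169, then 142, 103 and 140.2, then 193, 189 and 171 CPM in the same 3 groups, again with PNA-10b below both (0.53 ± 0.088, adjusted p 0.000535). NR4A1, an immediate early nuclear receptor, rose by 0.75 ± 0.21 on addition and was at -1.26 ± 0.20 in PNA-10b against control. On addition NR4A1 lost its call without replicate 2 of PNA-10b (adjusted p 0.137) or replicate 2 (0.0508) or 3 (0.0941) of PNA-10b+21. The matricellular genes CCN1 and CCN2 rose by 0.46 ± 0.090 and 0.49 ± 0.15, and MMP1, interstitial collagenase, by 0.86 ± 0.18 (adjusted p 0.0661 without replicate 1 of PNA-10b+21). The 2 contrasts share the PNA-10b libraries, so an error in that group enters both with opposite signs. In the contrast of PNA-10b with control 2.75% of genes were called higher and 3.74% lower.

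Genes of the ATF4 response, which cells switch on when amino acids run short or proteins misfold, were lower in the combined arm. Of 29 tested, 12 fell and 1 rose, with a median of -0.24, where 5.1% of all genes were called lower. No overlap on the lower side was seen for 18, against 13.4% of all genes. PSAT1, an enzyme of serine synthesis, measured 85.7, 114 and 81.8 CPM in PNA-10b and 67.3, 61.5 and 69.6 CPM in PNA-10b+21 (-0.51 ± 0.099, adjusted p 0.00237). Replicate 2 of PNA-10b was the highest library, and the groups did not overlap. SLC7A11, the cystine importer, measured 44.1, 57.9 and 52.4 CPM and 37.8, 34.4 and 39.1 CPM and changed by -0.47 ± 0.10, and the leucine importer SLC7A5 changed by -0.51 ± 0.12. DDIT3, the stress factor CHOP, measured 45.0, 53.2 and 47.4 CPM and 37.5, 37.9 and 34.3 CPM, a change of -0.41 ± 0.075 (adjusted p 0.00124). ATF3 changed by -0.35 ± 0.065, TRIB3 by -0.35 ± 0.10 and NUPR1, a small stress protein of chromatin, by -0.54 ± 0.059. ATF4 itself was at -0.14 ± 0.053 (adjusted p 0.118), and GDF15, a secreted stress cytokine, was the member that rose (0.31 ± 0.078), a count that fell to 0 without replicate 1 of PNA-10b or replicate 3 of PNA-10b+21.

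In PNA-10b against control, which lacked the carrier, 12 of 29 members were called higher and none lower, with a median of 0.24. Of all genes 2.75% were called higher and 3.74% lower in that contrast. PSAT1 measured 63.6, 64.0 and 51.5 CPM in control, and PNA-21 cells measured 71.4, 80.7 and 70.5 CPM. DDIT3 measured 33.9, 37.7 and 35.6 CPM in control and 34.5, 41.4 and 39.2 CPM in PNA-21. For 10 of the 29 the change on addition was below the change from control to PNA-21 by the interaction test, and for none above. Of all genes 1.64% were below and 1.48% above. The addition, the interaction and PNA-10b against control share the PNA-10b libraries. An error upward in that group would raise the last contrast and lower the addition and the interaction. Replicate 2 of PNA-10b was the highest of its arm for 24 of the 29, and leaving out 1 library left 8 to 13 members called lower. A motif of this response, TGATGNAA on either strand, stood in 5 of 23 promoters of the list (21.7%) and in 1.86% of all promoters. Of the 10 members with a promoter that were called, 1 held it, ATF3, which is shown for that reason with the match in capitals.
ATF3, chr1:212565206-212565233, plus strand: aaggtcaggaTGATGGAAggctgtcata

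Heat shock proteins rose modestly. Of 23 tested, 11 rose and 1 fell, with a median of 0.19 where 4.61% of all genes were called higher. HSP90AA1, the inducible cytosolic HSP90, had the highest CPM (not divided by length) of the genes that rose, with 2315, 2118 and 1985 CPM in PNA-10b and 2656, 2844 and 2476 CPM in PNA-10b+21 (0.31 ± 0.068, adjusted p 0.00568). Its lowest combined library was above the highest PNA-10b library. HSPH1 and HSPA4, of the HSP110 family, rose by 0.34 ± 0.056 and 0.35 ± 0.059, and the mitochondrial chaperones HSPD1 and TRAP1 by 0.21 ± 0.051 and 0.31 ± 0.074. HSPA8, the constitutive HSP70, rose by 0.26 ± 0.064 and lost its call without replicate 3 of PNA-10b (adjusted p 0.0773) or without replicate 1 (0.0637) or 2 (0.0732) of PNA-10b+21. DNAJB4, a J-domain cochaperone, was the member that fell (-0.45 ± 0.074). The count of 11 was 7 and 4 without replicates 2 and 3 of PNA-10b, and 3 and 5 without replicates 1 and 2 of PNA-10b+21.

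Targets of NRF2, the factor that answers oxidative and electrophilic stress, moved the same way. Of 20 tested genes 9 rose and none fell, with a median of 0.24. NQO1, a quinone reductase, measured 175, 167 and 160.5 CPM in PNA-10b and 213, 239 and 211 CPM in PNA-10b+21 (0.40 ± 0.071, adjusted p 0.0009), and control cells measured 205, 183 and 209.8 CPM. The combined libraries were all above the PNA-10b libraries. AKR1C1, an aldo-keto reductase, rose by 0.41 ± 0.092, the transporter ABCC2 by 0.34 ± 0.058 and the ferritin chains FTL and FTH1 by 0.29 ± 0.059 and 0.27 ± 0.083. The pentose phosphate enzymes TKT and PGD rose by 0.21 ± 0.046 and 0.18 ± 0.053. HMOX1, heme oxygenase, measured 376, 366 and 351 CPM and 485, 495 and 337 CPM and did not pass (adjusted p 0.117), with replicate 3 of the combined arm below the PNA-10b libraries and the other two above them. Other standard targets did not pass, with GCLM at 0.00 ± 0.058, TXNRD1 at 0.10 ± 0.052 and GCLC at -0.06 ± 0.063. The 9 calls dropped to 5 without replicate 1 and to 5 without replicate 2 of PNA-10b+21.

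Some extracellular matrix genes fell. Of 34 tested, 10 fell on addition and none rose, with a median of -0.14. Against control, which lacked the carrier, 19 of them were called lower in PNA-10b and 29 in PNA-21. Of all genes 3.74% and 14.6% were called lower in those contrasts. COL5A1, a chain of fibrillar collagen V, measured 866, 862 and 977 CPM in control, 641, 599 and 677 CPM in PNA-10b and 371, 406 and 473 CPM in PNA-10b+21. The 3 groups did not overlap, with a change of -0.62 ± 0.074 on addition (adjusted p 1.51e-05). FBN1, the microfibril protein fibrillin, measured 2575, 2361 and 2315 CPM in PNA-10b and 1429, 1564 and 1713 CPM in PNA-10b+21 and changed by -0.62 ± 0.075. COL6A3 and TGFBI had the highest CPM of the genes that fell and changed by -0.32 ± 0.070 and -0.42 ± 0.068, and COL6A3 was at an adjusted p of 0.0551 without replicate 1 of PNA-10b+21. LRP1, an endocytic receptor, changed by -0.18 ± 0.053 and kept its call in 2 of the 6 fits that left out a library (largest adjusted p 0.146). COL1A1 changed by -0.32 ± 0.066 and the crosslinking enzyme LOXL3 by -0.54 ± 0.060. For 17 of the 34 the change on addition was above the change from control to PNA-21 by the interaction test, and for none below. Of all genes 1.48% were above and 1.64% below. That test and the contrast of PNA-10b with control share the PNA-10b libraries. Without replicate 1 of PNA-10b+21, 6 members were called lower.

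Among matrix proteases and their inhibitors 4 of 27 rose and 6 fell, where 4.61% and 5.1% of all genes did. MMP14, the membrane-anchored activator of other metalloproteinases, measured 549, 534 and 529 CPM in PNA-10b and 647, 648 and 666 CPM in PNA-10b+21 (0.28 ± 0.053, adjusted p 0.00162), while control cells measured 648, 588 and 662 CPM and overlapped with the combined arm. ADAM8 rose by 0.38 ± 0.061, while ADAM12 and ADAM19 changed by -0.31 ± 0.049 and -0.43 ± 0.087. The count of rises was 2 without replicate 1 of PNA-10b+21.

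Cytokine genes changed in both directions, 4 higher and 4 lower of 30 tested, against 4.61% and 5.1% of all genes. IL6, an inflammatory cytokine and growth factor of glioma cells, measured 30.9, 33.4 and 35.1 CPM in PNA-10b and 14.6, 16 and 19.0 CPM in PNA-10b+21. The groups did not overlap and the log2 fold change was -1.01 ± 0.10 (adjusted p 2.3e-06). Its coreceptor IL6ST changed by -0.23 ± 0.071 and OSMR, a related receptor, by -0.31 ± 0.051. The neutrophil growth factor CSF3 rose by 0.44 ± 0.11, CSF1 by 0.33 ± 0.070, IL1B by 0.29 ± 0.077 and IL11 by 0.44 ± 0.11, of which IL11 lost its call without replicate 2 of PNA-10b (adjusted p 0.0621) or replicate 1 of PNA-10b+21 (0.14). The chemokine CXCL8 changed by -0.47 ± 0.15 (adjusted p 0.046). The 4 rises were 2 without replicate 1 of PNA-10b and 1 without replicate 1 of PNA-10b+21, and the 4 falls were 2 without replicate 2 or 3 of PNA-10b or replicate 2 of PNA-10b+21.

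Of 15 coagulation genes 3 rose and 6 fell, against 4.61% and 5.1% of all genes. F3, tissue factor, which starts coagulation, measured 148, 149.5 and 156 CPM in PNA-10b and 63.7, 83.4 and 90.7 CPM in PNA-10b+21, a log2 change of -0.93 ± 0.12 (adjusted p 2.66e-05). Its inhibitor TFPI changed by -0.56 ± 0.076. TFPI2, a related inhibitor of matrix-associated proteases, moved the other way, from 361, 362 and 358 CPM to 605, 638 and 489 CPM (0.68 ± 0.072, adjusted p 4.45e-06). PLAT, a plasminogen activator, changed by -0.37 ± 0.094, while PLAU rose by 0.19 ± 0.056. The 6 falls were 3 without replicate 1 of PNA-10b+21, and the 3 rises were 1 without replicate 3 of PNA-10b or replicate 1 or 2 of PNA-10b+21. Of 16 angiogenic factors and receptors outside the hypoxia list 4 fell, led by PDGFC (-0.42 ± 0.059, adjusted p 9.49e-05). FGF1 (-0.50 ± 0.12), ANGPT1 (-0.41 ± 0.11) and NRP2 (-0.19 ± 0.054) were the others, and 1 call was left without replicate 3 of PNA-10b or replicate 1 of PNA-10b+21, and 2 without replicate 2 of PNA-10b+21.

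DNA replication genes were slightly higher. Of 32 tested 10 rose and none fell, with a median of 0.18, where 4.61% of all genes were called higher. No overlap on the higher side was seen for 20, against 14.9% of all genes. E2F1, the factor that drives S-phase genes, measured 103, 112 and 98.7 CPM in PNA-10b and 141, 124 and 124 CPM in PNA-10b+21 (0.31 ± 0.068, adjusted p 0.00569). The helicase subunit MCM7 rose by 0.23 ± 0.055 and the nucleotide reductase subunits RRM1 and RRM2 by 0.23 ± 0.056 and 0.20 ± 0.056. These calls depend on single libraries, and in the combined arm replicate 1 was highest for 25 of the 32 and replicate 3 lowest for 31. The count was 0 without replicate 1 and 3 without replicate 2 of PNA-10b+21, 2 without replicate 3 of PNA-10b, and 17 without replicate 3 of PNA-10b+21. Genes of G2 and M phase changed less, with 2 of 29 called higher, AURKA and CCNB1, and a median of 0.086. Those calls ended without replicate 3 of PNA-10b or replicate 1 or 2 of PNA-10b+21, 1 was left without replicate 2 of PNA-10b, and there were 7 without replicate 3 of PNA-10b+21. Against control, which lacked the carrier, most of this list was called higher in either single arm, 26 of 29 in PNA-21 and 22 in PNA-10b. Of all genes 15.2% and 2.75% were called higher in those contrasts.

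Cholesterol synthesis and uptake genes showed a like pattern. Against control 21 of 29 were called higher in PNA-21 and 18 in PNA-10b, where 15.2% and 2.75% of all genes were. On addition 5 were called higher and 1 lower. FDFT1, squalene synthase, measured 172, 164 and 168 CPM in control, 215, 212 and 214 CPM in PNA-10b, 238, 227 and 240.2 CPM in PNA-21 and 236, 232 and 243 CPM in PNA-10b+21. PNA-10b was above control and the combined libraries above PNA-10b, by 0.15 ± 0.045 (adjusted p 0.0368). For 13 of the 29 the change on addition was below that of sgPNA-21 alone by the interaction test, where 1.64% of all genes were. That test and the contrast of PNA-10b with control share the PNA-10b libraries. The 5 rises on addition were 0 without replicate 1 of PNA-10b+21 and 2 or 3 without any other library. SQLE, squalene epoxidase, was the member that fell (-0.16 ± 0.047), a call that held in 1 of the 6 fits that left out a library. FASN, fatty acid synthase, rose from 453, 446 and 473 CPM to 601, 550.2 and 611 CPM (0.36 ± 0.054, adjusted p 0.00018) and was the only one of 13 fatty acid synthesis genes to pass.

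Reported targets of miR-21 did not rise as a group. Of 31 tested, 1 rose and 6 fell, with a median of -0.082, where 4.61% of all genes rose and 5.1% fell. SPRY2, an inhibitor of receptor tyrosine kinase signalling, was the gene that rose, from 156, 144 and 146 CPM in PNA-10b to 198, 189 and 184 CPM in PNA-10b+21 (0.36 ± 0.058, adjusted p 0.000445), without overlap. TIMP3, an inhibitor of metalloproteinases, fell from 58.1, 52.2 and 57.6 CPM to 36.4, 39.9 and 38 CPM (-0.56 ± 0.071, adjusted p 3.25e-05). PDCD4, a translation inhibitor, measured 33.3, 35.5 and 31.2 CPM and 29.9, 28.9 and 31.7 CPM, with overlap and no call (adjusted p 0.232). RECK was at 0.01 ± 0.066, BTG2 at 0.29 ± 0.14 and SMAD7 at -0.37 ± 0.13, none past the test. The 6 falls were 3 without replicate 3 of PNA-10b, and 2 and 3 without replicates 1 and 2 of PNA-10b+21. A second gene was called higher without replicate 3 of PNA-10b+21. Of 12 reported targets of miR-10b, CDKN1A, the cell cycle inhibitor p21, rose (0.26 ± 0.051) and no other passed.

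The sites of 3 targets are shown because genes with the same full site had different changes. Each holds an 8mer match to the miR-21 seed in its longest annotated 3′ UTR (GENCODE 29), in capitals, read on the gene's strand, with the coordinates of the 8 bases.
PDCD4, chr10:110898330-110898337, plus strand, log2 fold change -0.15: atattctaATAAGCTAcctttt
SPRY2, chr13:80336515-80336522, minus strand, log2 fold change 0.36: tgtattgcATAAGCTAaagcaa
TIMP3, chr22:32860409-32860416, plus strand, log2 fold change -0.56: atggggacATAAGCTAattttt
TIMP3 held 2 such sites, 1 of which is shown. TPM1 held no match in the UTR used. PGK1, a glycolytic gene described above, also held an 8mer (chrX:78128243-78128250, plus strand: gtgtgcatATAAGCTAgaacag).

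Over all genes the miR-21 site went with a slightly lower change on addition and a slightly higher one for sgPNA-21 alone. Of 12211 tested genes with an annotated 3′ UTR, 1336 held an 8mer or 7mer-m8 match (ATAAGCT) and had a median log2 fold change of -0.017, against 0.021 for the 10287 with no match. The difference of the medians was -0.038, with an SD of 0.017 over the 3 combined libraries taken singly. The 373 genes with an 8mer had a median of -0.024, and 3.22% of them were called higher and 9.12% lower, against 6.22% and 5.39% of genes with no match. UTR length moved with this: the median UTR was 3389 bases with a site and 1446 without. Within 4 classes of UTR length, from the shortest to the longest, the difference was -0.016, -0.017, -0.0045 and -0.016. These classes set genes with an 8mer or 7mer-m8 against all others. The others included the 588 genes with only a 7mer-A1 match, the 8mer without its first base. In PNA-21 against control the medians were 0.053 for genes with an 8mer, 0.025 for those with an 8mer or 7mer-m8 and 0.012 with no match, the opposite order. The miR-10 family site (ACAGGGT), whose sgPNA was in both arms, gave a difference of -0.024. The 316 genes with a miR-10 family 8mer had a median of -0.024 on addition. Of these 2.85% were called higher and 9.49% lower, much like the genes with a miR-21 8mer.

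sgPNA-21 alone against untreated cells shares no library with the addition, so the 2 can be set side by side, although only the former includes the carrier. It changed more genes, 2388 higher (15.2%) and 2296 lower (14.6%). Of the genes raised by the addition 466 were also raised alone, 64.4% of the addition's rises and 19.5% of those alone. Of the genes lowered by the addition 565 were also lowered alone, 70.5% and 24.6%. Genes called in opposite directions numbered 9 and 10. The sizes were alike for genes called in the addition, with medians of -0.37 on addition and -0.37 alone for falls, and 0.26 and 0.23 for rises. Genes chosen by their call alone had smaller changes on addition, with medians of -0.15 against -0.38 for falls and 0.11 against 0.29 for rises. Across 15715 genes the log2 changes had a Pearson r of 0.409, given as a description since genes are not independent replicates. For the hypoxia-induced list the medians were -0.64 on addition and -0.66 alone. For CA9 they were -0.99 and -0.98 and for IGFBP3 -1.35 and -1.23, and the interaction test did not separate them (adjusted p 0.973 and 0.516).

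The interaction, which subtracts the PNA-21 against control change from the change on addition, was called above 0 for 233 genes (1.48%) and below 0 for 258 (1.64%). COL3A1, a fibrillar collagen, measured 73.3, 64.6 and 101 CPM in control and 30.9, 22.6 and 27.1 CPM in PNA-21, against 26.9, 20.1 and 27.1 CPM in PNA-10b and 17.8, 28.3 and 32.6 CPM in PNA-10b+21. It was lower than control in both arms with 1 compound, which also had the carrier. The combined libraries overlapped with PNA-10b, an interaction of 1.64 ± 0.25 (adjusted p 0.00399). CEMIP, which degrades hyaluronan, was also lower with either compound alone, at 65.3, 38.1 and 83.7 CPM in control, 29.5, 19.5 and 30.8 CPM in PNA-21, 20.5, 16.4 and 21.4 CPM in PNA-10b and 23.4, 29.9 and 30.5 CPM in PNA-10b+21 (interaction 1.72 ± 0.29, adjusted p 0.00625). ECM2, a matrix protein, fell on addition from 3.70, 4.24 and 4.31 CPM to 2.06, 1.77 and 2.26 CPM (-1.0 ± 0.19, adjusted p 0.0017), while control and PNA-21 measured 2.15, 3.06 and 2.18 and 2.66, 3.35 and 3.49 CPM (interaction -1.35 ± 0.27, adjusted p 0.0118). These counts moved with single libraries of every group. They were 451 and 577 without replicate 2 of control and 304 and 547 without replicate 1 of PNA-10b. They were 61 and 49 without replicate 1 of control, 71 and 55 without its replicate 3, 44 and 48 without replicate 2 of PNA-10b, and 145 and 111 without its replicate 3. Without replicate 2 of PNA-21 they were 67 and 57. Without replicates 1, 2 and 3 of PNA-10b+21 in turn they were 191 and 163, 88 and 66, and 90 and 150.

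**Figure D4:**
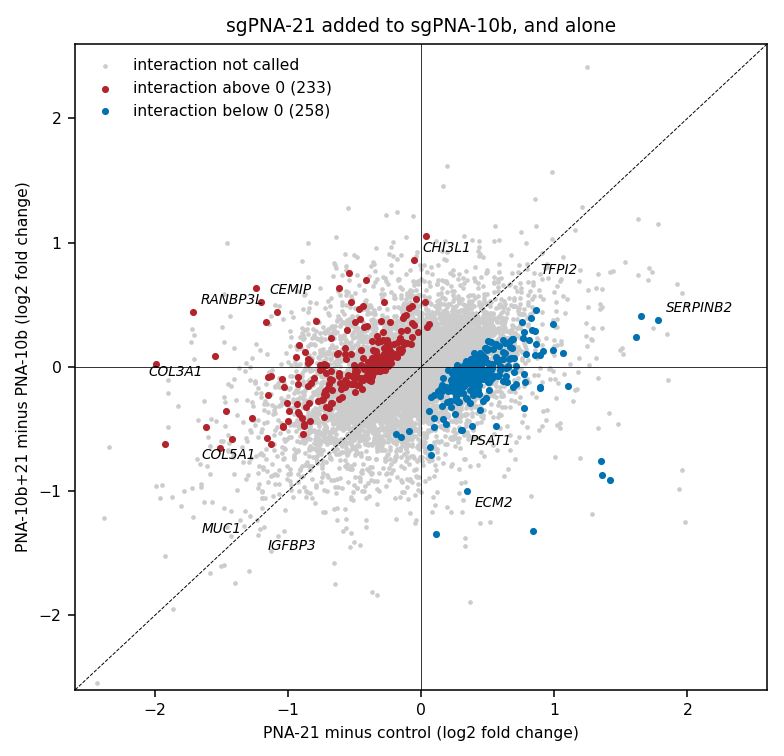
Log2 fold change of PNA-10b+21 over PNA-10b (vertical axis) against that of PNA-21 over control (horizontal axis), 1 point per gene, with the line of equal change dashed. The 233 genes with an interaction above 0 (red) and the 258 below 0 (blue) lie to either side of the line, IGFBP3 lies near it, and 22 genes lie beyond the axes.

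Immediate early genes were divided, with 3 of 19 higher and 2 lower, against 4.61% and 5.1% of all genes. EGR1, NR4A1 and JUNB (0.23 ± 0.058) rose, while EGR2, a close relative of EGR1, measured 20.4, 18.6 and 20 CPM in PNA-10b and 12.3, 13.4 and 14.0 CPM in PNA-10b+21 and changed by -0.57 ± 0.093 (adjusted p 0.000404). The rises were 1 without replicate 2 of PNA-10b, and the falls 1 without replicate 3 of PNA-10b or replicate 1 of PNA-10b+21. Of 18 genes of TGF-beta and YAP signalling 4 rose and 3 fell. The rises were the targets CCN1, CCN2, ID1 (0.31 ± 0.082) and ID3 (0.33 ± 0.086), and the falls were the latent binders LTBP1 (-0.29 ± 0.057) and LTBP3 (-0.29 ± 0.055) and the BMP regulator BMPER (-0.41 ± 0.070). Without replicate 2 of PNA-10b or of PNA-10b+21 1 rise was left, and 2 without replicate 1 of PNA-10b or replicate 1 or 3 of PNA-10b+21. EPHA2 was the only one of 13 ERK feedback genes to pass, and none of 17 genes of microRNA machinery did.

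The spread of the members within each list is shown for 16 lists, beside the same lists in PNA-21 against control.

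**Figure D5:**
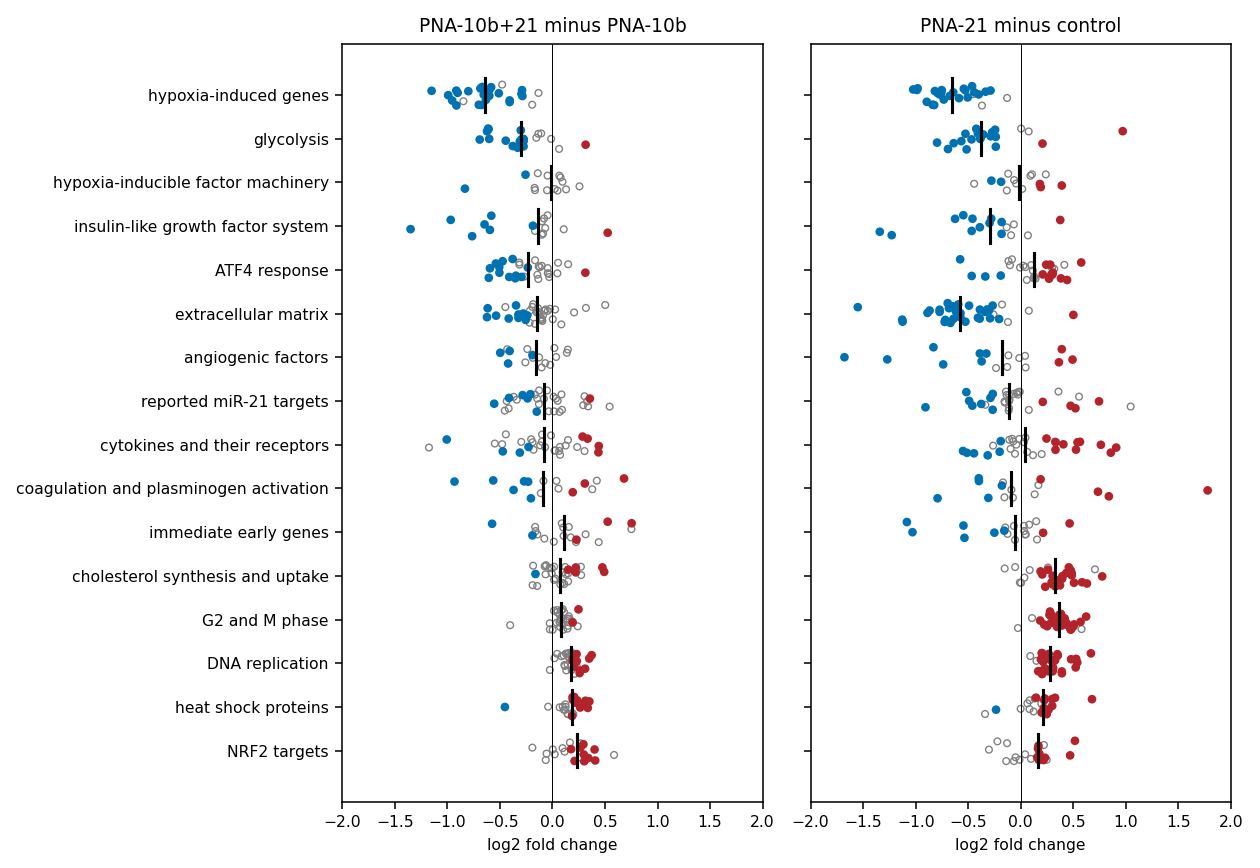
Log2 fold change (horizontal axes) of each tested member of 16 gene lists, on addition (left) and for PNA-21 against control (right), with filled points for members called higher (red) or lower (blue), open points for the others and a bar at the median. The medians of hypoxia-induced and glycolysis genes lie left of 0 in both panels, that of the ATF4 response lies at -0.24 on addition and 0.13 in PNA-21 against control, and that of extracellular matrix genes at -0.14 and -0.57.

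Levels of 2 further genes were uneven within an arm. EEF1D measured 0.362, 0.295 and 0.312 CPM in PNA-10b and 0.573, 23.0 and 0.628 CPM in PNA-10b+21, so its rise came from replicate 2 of the combined arm, and without it the adjusted p was 0.535. Without replicate 2 or 3 of PNA-10b the adjusted p was 0.054 and 0.0554. EIF3CL measured 102, 1.77 and 20.8 CPM in PNA-10b and 0.974, 1.35 and 0.753 CPM in PNA-10b+21, with replicates 1 and 3 of PNA-10b far above the other libraries. EIF3CL is a near-identical copy of EIF3C, and how the authors' counting handled reads that match both copies was not tested.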

How the data were processed

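PolyA-selected messenger RNA of 12 U87 libraries was sequenced with a stranded kit, per the labels' protocols. The authors deposited raw counts per gene in 1 table. The submitters' processing notes name HISAT2 2.1.0, SAMtools 1.7, HTSeq 0.11.0 and the build hg38, while for the strand setting and the annotation used in counting the sources read here give no value. Genes were matched to GENCODE 29 (34564 of 35741 identifiers).

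Counts were filtered with edgeR's filterByExpr (minimum count 10, 15715 genes and 99.84% of counts kept), scaled by TMM and fitted over all 12 libraries with edgeR 4.0.16 in R 4.3.3, using the quasi-likelihood test and a Benjamini-Hochberg adjusted p under 0.05. A log2 fold change is followed by its standard error. The procedure was tested on simulated data. DESeq2 1.42.0, other scaling and filters, the 6 libraries alone, a replicate block and leaving out each library were tried. Pairs of replicates differed beyond sampling noise (chi-square per degree of freedom 2.65 to 5.29). The gene lists and the comparison were chosen with earlier results of these data known. Named genes are the 12 largest called changes in each direction (mean log2 CPM of at least 1, no overlap, at most 4-fold spread within an arm with 0.5 added to CPM), the 5 with the smallest p and the 5 of highest CPM, 5 interaction genes each way, the miR-21 targets, up to 4 called members per list and other members named for their role. Genes with clone names were treated as having no symbol. Promoters and microRNAs come from RefSeq (GRCh38.p14), and UTR sequences from GENCODE 29 transcripts.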

Additional observations from a re-analysis of the deposited data

Results flagged for a closer look

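The change on adding sgPNA-21 to sgPNA-10b and the change from untreated cells to sgPNA-21 differed by edgeR's interaction test for 233 genes above 0 and 258 below 0. The 5 largest values above 0, as log2 differences, were 2.16 for RANBP3L, 1.88 for TMEM119, 1.72 for CEMIP, 1.64 for COL3A1 and 1.53 for ITGA11. In each of these the level fell under sgPNA-21 alone and had a log2 fold change above 0 on addition. The 5 largest below 0 were -1.40 for SERPINB2, -1.38 for ATP6V0D2, -1.35 for ECM2, -1.25 for LINC02392 and -1.10 for PARD6B. Calls of RANBP3L, SERPINB2, ATP6V0D2, LINC02392 and PARD6B ended when some single library was left out. The untreated arm lacked the carrier, so its part in these differences cannot be told apart.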

How the results depend on the processing

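Among the named genes, no called fold change or interaction changed sign under the alternatives run, and other called genes were not checked for this. The difference between genes with and without a miR-21 site also kept its sign. The interaction had fewer genes above 0 than below, and this order turned in several settings. It did so without replicate 1 (61 and 49) or 3 (71 and 55) of control or replicate 3 of PNA-10b (145 and 111). The same held without replicate 2 (67 and 57) or 3 (198 and 195) of PNA-21. It also held without replicate 1 (191 and 163) or 2 (88 and 66) of PNA-10b+21, and with a minimum count of 50 (275 and 264). Genes higher on addition numbered 193 to 772 and genes lower 339 to 915 when 1 library was left out. DESeq2 called 606 higher and 675 lower, and the 6 libraries fitted alone gave 696 and 821. The interaction counts were 350 above 0 and 724 below 0 with no filter on low counts, and ranged from 44 to 451 and from 48 to 577 with 1 library left out. Listed genes called higher ranged from 26 to 77 and lower from 72 to 125 with 1 library left out. Of 122 named genes called on addition, 82 kept their call in all 6 such fits and 35 lost it without replicate 1 of PNA-10b+21. The labels do not say whether replicate numbers pair the samples. Deviations of same-numbered libraries of the 2 arms had correlations of -0.0405, -0.000465 and 0.106. Those of control and PNA-21 had correlations of 0.0585, 0.137 and 0.0586. With a replicate block the addition gave 837 higher and 869 lower, the interaction 334 and 376, and sgPNA-21 alone 2486 and 2365. The difference between genes with and without a miR-21 site ranged from -0.051 to -0.032 with 1 library left out. Depths of 12846676 to 18305820 counts limit genes below the filter, which were not tested.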

Other observations

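Endoplasmic reticulum chaperones and disposal factors were slightly lower on addition, with 5 of 22 called lower, none higher and a median log2 fold change of -0.085. HERPUD1, a factor of protein disposal, measured 132, 132 and 127 CPM in PNA-10b and 104, 107 and 110.1 CPM in PNA-10b+21 and changed by -0.28 ± 0.050 (edgeR, adjusted p 0.0009). The co-chaperone DNAJB9 changed by -0.39 ± 0.092 and the isomerase P4HB by -0.21 ± 0.050. The count was 2 without replicate 1 or 2 of PNA-10b+21 and 3 without any 1 PNA-10b library. Of 18 aminoacyl-tRNA synthetases, which charge transfer RNAs, 2 fell and 1 rose, and 6 were called lower without replicate 3 of PNA-10b.

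Interferon-stimulated genes showed few changes, with 2 of 20 higher and 1 lower, against 4.61% and 5.1% of all genes. IFI44L rose by 0.25 ± 0.056, while IRF1 changed by -0.36 ± 0.096 (edgeR, adjusted p 0.0193). The call of IRF1 held in 2 of the 6 fits that left out a library. Of 14 targets of p53, BAX, which promotes apoptosis, was the only one called (0.20 ± 0.055), and that call held in 1 such fit. SLC1A3, a glutamate transporter of astrocytes, fell from 62.7, 56.6 and 66.2 CPM to 41.2, 49.7 and 51.5 CPM (-0.38 ± 0.088), a call that ended without replicate 1 of PNA-10b+21. SNAP25, a synaptic gene among the markers of other brain cells, changed by -0.28 ± 0.063.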
